A study of Homo sapiens with 2 samples.

Results

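The type I interferon response genes were followed in P493-6 cells as a list of 60 genes chosen by name for their part in this pathway. Each gene was taken at the transcript row with the highest mean over both libraries, out of 19096 gene symbols listed. The list holds 44 effectors, 8 sensors and adaptors of foreign nucleic acid, 6 interferon regulatory factors (IRF) and the 2 chains of the interferon receptor, IFNAR1 and IFNAR2. P493-6 is a human B cell line, immortalized with Epstein-Barr virus, that carries a c-Myc transgene which tetracycline keeps silent, and the labels call it a B cell lymphoma. Cells of both groups were grown in RPMI 1640 with serum. The low c-Myc group was taken 0 h after release of the transgene from tetracycline, and the high c-Myc group 24 h after it. Each group held 1 library of polyadenylated RNA, so nothing below rests on replicates or on a test, and every difference describes this pair of libraries only.

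Type I interferons are secreted when a cell senses viral RNA or misplaced DNA. RNA sensors in the cytoplasm, Toll-like receptors in endosomes and DNA sensors pass the signal through adaptors to IRF proteins, which switch on the interferon genes. Interferon then binds IFNAR1 and IFNAR2 on the same or neighbouring cells, the kinases JAK1 and TYK2 are activated, and STAT2 joins IRF9 on a DNA motif, the interferon-stimulated response element (ISRE), in front of the effector genes. Many effectors are also held at a basal level without added interferon, and resting B cells carry the endosomal receptors TLR7 and TLR9.

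Levels are given as RPKM, read counts corrected for transcript length and library size, so levels of different genes can be set side by side. The steps between the lowest values implied a depth of about 103000000 reads at low c-Myc and 105400000 at high c-Myc. Synthetic RNAs had been added by cell number, and 46 of them reached an RPKM of 1 in each library. Their log2 ratios of high over low c-Myc had a median of -2.56, quartiles of -2.84 and -2.17 and an SD of 0.54. Ratios below are therefore given on 2 scales, as deposited and per cell, where the per-cell log2 ratio is the deposited one minus -2.56. Before the ratio was taken 0.5 was added to each RPKM, so deposited log2 ratios of weak genes come out too small. Fold values on the deposited scale are of the RPKM values themselves. Per-cell fold values come from the per-cell log2 ratio and so include the added 0.5. They are too large for weak genes that were lower on the deposited scale. A gene was counted as higher or lower at a log2 ratio at or beyond 1 or -1, a 2-fold difference. Genes with a mean RPKM of at least 1 counted as expressed, which kept 10272 genes and 58 of the 60 interferon response genes. The 2 left out were HERC5, a ligase that attaches ISG15 to new proteins, which stood at 0.0386 RPKM at low c-Myc and was listed at 0 at high c-Myc, and GBP2, a guanylate-binding protein, at 0.142 and 0.0329. About 14 reads stood behind the first of these 4 values, and 33 and 8 behind the last pair.

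On the deposited scale most interferon response genes were lower at high c-Myc. Of the 58 expressed ones, 32 were at least 2-fold lower and none was 2-fold higher, and the log2 ratios ran from -2.57 for IFIT2 to 0.42 for ISG15. Of all expressed genes, 9.74% were at least 2-fold lower and 24.9% at least 2-fold higher. The median log2 ratio was -1.02 over the interferon response genes (interquartile range -1.46 to -0.62) and 0.22 over all expressed genes. Below 0 stood 53 of the 58, and the 5 above 0 were ISG15, PML, IRF3, IRF5 and IRF7. The summed RPKM of the 58 genes was 6732 at low c-Myc and 4897 at high c-Myc, which was 2.93% and 1.63% of the sum over all genes. In bulk RNA, fewer cells that express a gene and less of its RNA in each cell cannot be told apart. Counting error was small beside a 2-fold difference for most of these genes, but the signs of IRF7 (interval -0.014 to 0.028) and MYD88 (-0.088 to 0.017) lay within it. Approximate reads per gene ran from 246 to 97499 in the low c-Myc library and from 145 to 133136 in the high one. The exact 95% binomial interval was taken on the RPKM ratio without the added 0.5. Over 55 genes it reached a median of 0.045 to either side of the log2 of that ratio, and 0.30 for IFITM3, the most. The log2 ratios given here can lie outside it, as for GBP1, at -1.53 against an interval of -2.15 to -1.78.

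**Figure D1:**
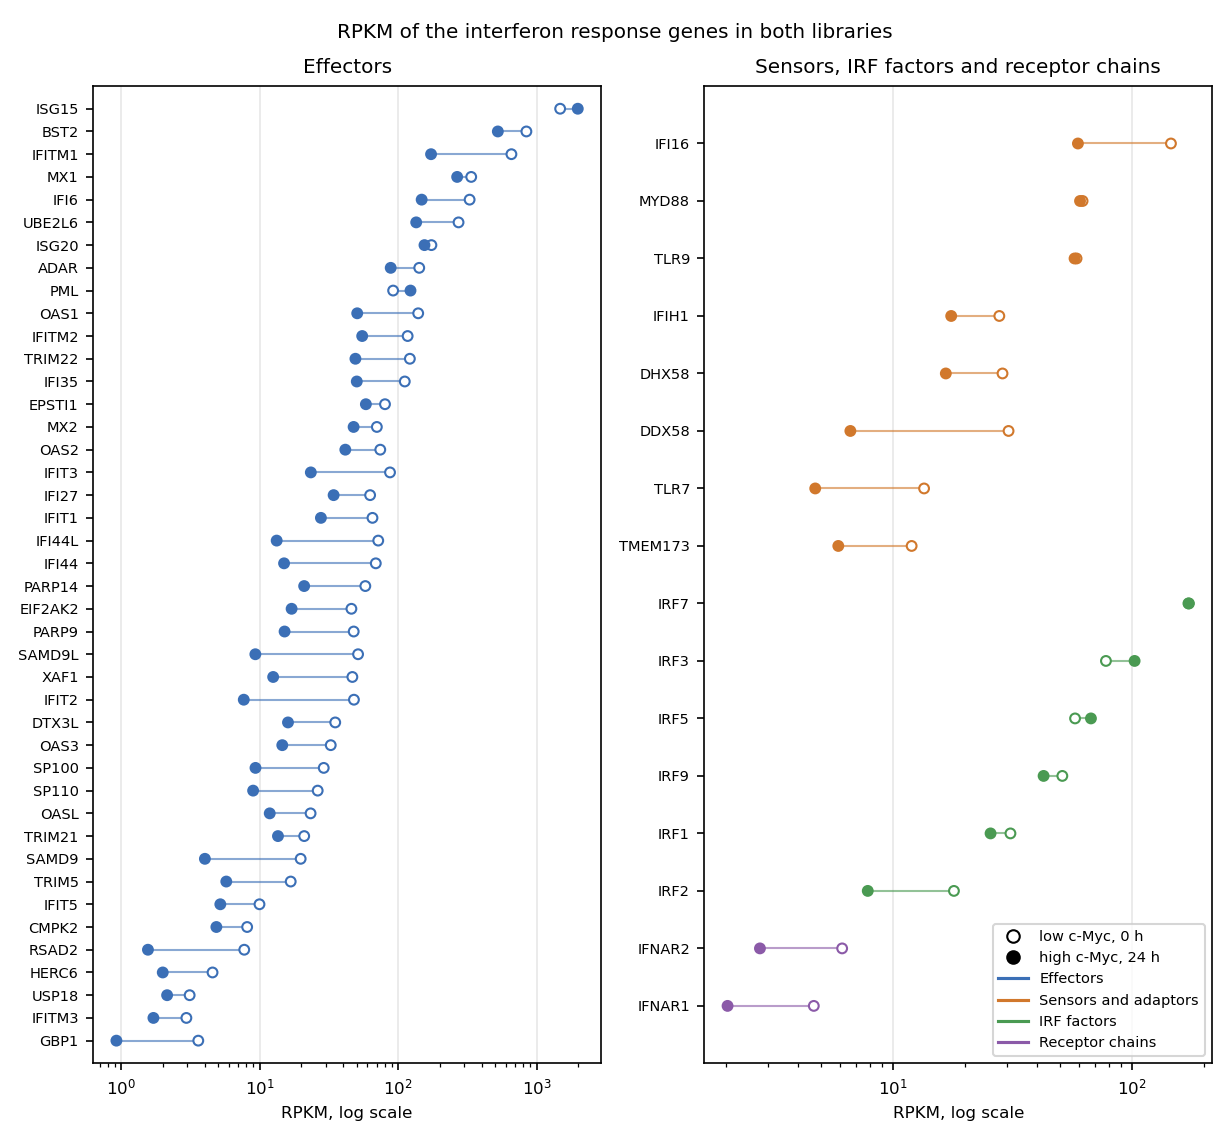
RPKM on a log axis of the 58 expressed interferon response genes, with open circles for the low c-Myc library and filled circles for the high one, joined by a line for each gene and coloured by role. The filled circle lies to the left of the open one for 53 genes, and IFIT2, at 47.9 and 7.66, has the widest gap.

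The roles had unequal counts. Of 42 expressed effectors, 26 were at least 2-fold lower, and the median log2 ratio of the 42 was -1.14. Of 8 sensors and adaptors, 3 were lower, with a median of -0.87. Of 6 IRF factors 1 was lower, with a median of -0.13, and both receptor chains were lower, with a median of -1.02. These are counts from 1 library a group, and the differences between the roles were not tested.

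Among the effectors, the IFIT proteins, which bind the ends of foreign RNA and block its translation, included the lowest ratio of the list. IFIT2 had an RPKM of 47.9 at low c-Myc and 7.66 at high c-Myc, 6.25-fold lower, and its log2 ratio of -2.57 ranked 31 from the bottom of 10272 genes. IFIT3 had 87.3 and 23.4, 3.73-fold lower. IFIT1 had 65.2 and 27.7, 2.36-fold lower. IFIT5, whose log2 ratio was -0.88, had 9.95 and 5.19 and lay within 2-fold. The 4 genes lie together on chromosome 10 in the order IFIT2, IFIT3, IFIT1, IFIT5, with 1 other gene between IFIT3 and IFIT1, and the log2 ratio was less negative at each step along that order.

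The oligoadenylate synthetases make a short messenger from ATP when they meet double-stranded RNA and so switch on RNase L. OAS1 stood at 139 RPKM at low c-Myc and 50.6 at high c-Myc, a log2 ratio of -1.45. OAS3 had 32.6 and 14.5, a log2 ratio of -1.14. OAS2 had 74.2 and 41.5, a log2 ratio of -0.83, and OASL, a relative without synthetase activity, had 23.3 and 11.8, a log2 ratio of -0.95. OAS1 and OAS3 were past 2-fold, and the other 2 were not. On chromosome 12 the order is OAS1, OAS3, OAS2, with a less negative ratio at each step for the rows used here. Another transcript row of OAS2, at -1.16, was below OAS3. Such an order was not seen in every cluster. In their order on the chromosome, IFITM2, IFITM1 and IFITM3 had -1.08, -1.93 and -0.65. PARP9, DTX3L and PARP14 had -1.63, -1.11 and -1.45.

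The enzymes that act on double-stranded RNA were split, and neither Mx GTPase was past 2-fold. EIF2AK2, the kinase PKR that stops translation, had an RPKM of 45.9 and 17.0, a log2 ratio of -1.41. ADAR, which edits adenosine to inosine, had 142 and 88.3, a log2 ratio of -0.68. MX1, which traps the nucleocapsids of RNA viruses, had 337 and 267, a log2 ratio of -0.34, and MX2 had 70.1 and 47.6, a log2 ratio of -0.55.

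The IFITM proteins sit in membranes and hinder the entry of viruses. IFITM1 had an RPKM of 658 at low c-Myc and 173 at high c-Myc, 3.81-fold lower, with a log2 ratio of -1.93. IFITM2 had 117 and 54.9, a log2 ratio of -1.08. IFITM3 had 2.95 and 1.70, a log2 ratio of -0.65 with an exact 95% counting interval of -1.10 to -0.49 on the RPKM ratio. The 3 genes are near copies of each other. The placing of reads with several matches is a step not given in the sources used here, so the split between them is uncertain.

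ISG15, a ubiquitin-like protein that is attached to other proteins, was the most abundant gene of the list and stood apart from the enzymes that handle it. It had an RPKM of 1479 at low c-Myc and 1983 at high c-Myc, 1.34-fold higher, with a log2 ratio of 0.42, near the middle of all expressed genes (percentile 57.9). Its share of the summed RPKM of the 58 genes was 21.97% at low c-Myc and 40.5% at high c-Myc. Without it the sum was 5253 and 2914. UBE2L6, the enzyme that carries ISG15 to its targets, had 273 and 135, a log2 ratio of -1.01. HERC6, related to the ligase HERC5, had 4.56 and 1.99, a log2 ratio of -1.02. USP18, which removes ISG15 and also dampens receptor signalling, had 3.11 and 2.14, a log2 ratio of -0.45. ISG15 thus stood above 0 on the deposited scale and the 3 other expressed genes of the conjugation pathway below it, UBE2L6 and HERC6 past 2-fold. The sign for ISG15 depended on scaling, as it was -0.16 after quantile normalization and -0.52 after a correction for GC content.

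PARP9 and its partner DTX3L, a ubiquitin ligase, and PARP14, an ADP-ribosyltransferase, were all past 2-fold. PARP9 had an RPKM of 47.7 and 15.1, a log2 ratio of -1.63. DTX3L had 35.1 and 15.99, a log2 ratio of -1.11, and PARP14 had 57.9 and 20.9, a log2 ratio of -1.45. Proteins of nuclear bodies, which bind incoming viral genomes, were split. SP100 had 28.98 and 9.31, a log2 ratio of -1.59. SP110 had 26.2 and 8.95, a log2 ratio of -1.50. PML, the scaffold of those bodies, had 91.9 and 123, a log2 ratio of 0.41, which was -0.12 after quantile normalization and -0.53 after the GC correction.

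Of the 3 TRIM ligases, 2 were at least 2-fold lower. TRIM5, which recognizes retroviral capsids, had an RPKM of 16.7 and 5.73, a log2 ratio of -1.47. TRIM22 had 121 and 49.1, a log2 ratio of -1.30, and TRIM21, a receptor for antibody inside the cell, had 20.9 and 13.5, a log2 ratio of -0.61. GBP1, the other guanylate-binding protein, was scarce, at 3.596 and 0.921, with a log2 ratio of -1.53.

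Of the 5 genes named IFI, 4 were past 2-fold. IFI44L had an RPKM of 71.8 and 13.2, 5.42-fold lower, with a log2 ratio of -2.39. IFI44, its neighbour, had 68.9 and 15.0, a log2 ratio of -2.16. IFI6, a mitochondrial protein, had 328 and 148, a log2 ratio of -1.15. IFI35 had 112 and 50.2, a log2 ratio of -1.14, and IFI27 had 62.7 and 34.2, a log2 ratio of -0.87. The 2 neighbours IFI44L and IFI44 were thus about 1 log2 unit below the rest of this group. The gap was smaller after the GC correction, with IFI44L at -1.88 and IFI44 at -1.65 against -1.43 for IFI35 and -1.27 for IFI6. IFI27 had no GC value.

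Of the other 8 effectors, 4 were at least 2-fold lower and 4 lay within 2-fold. SAMD9L, which restrains poxviruses and cell growth, had an RPKM of 51.3 and 9.29, 5.52-fold lower, with a log2 ratio of -2.40. Its neighbour SAMD9 had a log2 ratio of -2.16. RSAD2, viperin, which makes a chain-terminating nucleotide, had 7.73 and 1.56, a log2 ratio of -1.9998, and XAF1, which promotes cell death, had 46.7 and 12.5, a log2 ratio of -1.86. BST2, tetherin, which holds budding virus at the cell surface, was the most abundant of the 8, at 844 and 525 with a log2 ratio of -0.68. ISG20, an RNA exonuclease, had 174 and 155, a log2 ratio of -0.17, the least negative of the 8. CMPK2 and EPSTI1 had log2 ratios of -0.68 and -0.46.

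Of the 3 cytoplasmic RNA sensors, DDX58 alone was past 2-fold. DDX58, which encodes RIG-I, had an RPKM of 30.3 at low c-Myc and 6.61 at high c-Myc, 4.59-fold lower, with a log2 ratio of -2.12. IFIH1, which encodes MDA5, a sensor of long double-stranded RNA, had 27.8 and 17.5, a log2 ratio of -0.65. DHX58, which encodes LGP2, a regulator of both, had 28.6 and 16.6, a log2 ratio of -0.77. In the low c-Myc library these 3 sensors stood within 3 RPKM of each other, and in the high one DDX58 was below the other 2.

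The endosomal receptors and DNA sensors were split. TLR7, a receptor for single-stranded RNA, had an RPKM of 13.4 and 4.71, a log2 ratio of -1.42. TLR9, a receptor for unmethylated DNA, had 58.4 and 57.3, a log2 ratio of -0.03, and MYD88, the adaptor of both receptors, had 61.9 and 60.4, a log2 ratio of -0.04. IFI16, a nuclear DNA sensor, was the most abundant of the 8 in the low c-Myc library, with 145 and 59.2 and a log2 ratio of -1.29. TMEM173, which encodes STING, the adaptor of cytoplasmic DNA sensing, had 11.9 and 5.88, a log2 ratio of -0.96. Of the 4 RNA sensors in the list 2 were past 2-fold, and of its 2 DNA sensors, TLR9 and IFI16, 1 was. DNA sensors outside the list are given further below.

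The IRF factors lay closer to 0 than most effectors, and IRF2 alone was past 2-fold. IRF7, which amplifies interferon production, had an RPKM of 172 and 173, a log2 ratio of 0.01. IRF3, which starts it, had 77.6 and 102, a log2 ratio of 0.40, and IRF5, which acts below the Toll-like receptors, had 57.6 and 67.1, a log2 ratio of 0.22. IRF9, the DNA-binding part of the STAT complex, had 51.0 and 42.5, a log2 ratio of -0.26. IRF1 had 30.9 and 25.5, a log2 ratio of -0.27. IRF2, an antagonist of IRF1, had 17.9 and 7.81, a log2 ratio of -1.15. The 3 ratios at or above 0 depended on scaling, since IRF3, IRF5 and IRF7 stood at -0.17, -0.38 and -0.47 after quantile normalization, and IRF5 and IRF7 stood below 0 also after centring on the median gene, at -0.0022 and -0.21. Setting the RPKM of all genes to 1 common sum gave -0.10 and -0.31 for IRF5 and IRF7. The receptor chains were scarce. IFNAR1 had 4.64 and 2.02, a log2 ratio of -1.03, and IFNAR2 had 6.10 and 2.76, a log2 ratio of -1.02.

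**Figure D2:**
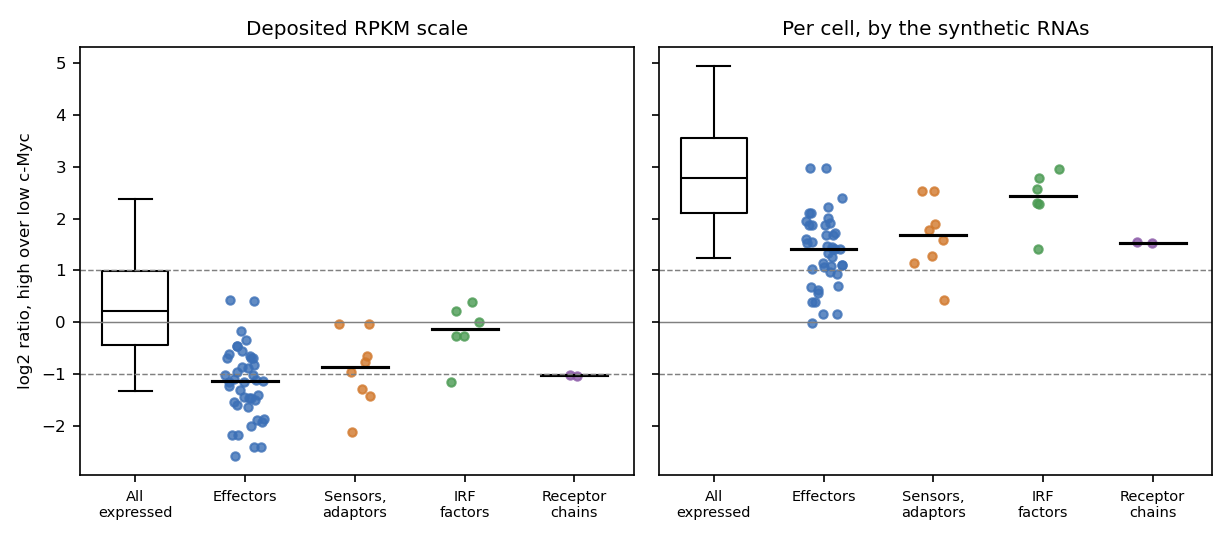
Log2 ratios of high over low c-Myc on the deposited scale (left) and per cell (right), with a box for all 10272 expressed genes (median, quartiles, whiskers from the 5th to the 95th percentile), a point for each interferon response gene by role and a bar at each role's median. The effectors have a median of -1.14 on the left and 1.42 on the right, in both below the median of all expressed genes at 0.22 and 2.78.

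Promoters are shown because the effectors share a known motif. The genes were not picked by their sequence, but they were chosen as interferon response genes, so a high share with the motif is no independent result. The sequences are from RefSeq on build GRCh38.p14, where 44 of the 60 genes matched by symbol or synonym, some with several starts, and each window held 250 bases before and 50 after a start. No entry was used for DHX58, GBP2, IFIT2, IFITM2, IFNAR2, IRF2, IRF3, IRF7, MX2, OAS2, OASL, PML, TLR7, TMEM173, TRIM22 and USP18. The motif searched was the ISRE core, GAAA followed after any 2 bases by GAAA again, on both strands, and 27 of the 44 genes (61.4%) held a match, against 4.38% of 27305 genes in the table. Of the effectors 25 of 35 held one, of the sensors and adaptors IFIH1 and MYD88 of 5, and of the IRF factors none of 3. Over single windows of the same length the shares were 48.4% of 64 and 3.57% of 35116. A match describes the letters and does not show binding.

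The stretches below carry the contrast between the lowest ratio among genes with a match, the highest ratio of the list, and a regulator without a match. Each is written 5′ to 3′ on the strand of the gene, ends at the base before the start site, and has the ISRE core matches in capitals. IFI44L is on chr1:78620198-78620447 (plus strand), ISG15 on chr1:1013247-1013496 (plus strand) and IRF1 on chr5:132490774-132491023 (minus strand).
IFI44L: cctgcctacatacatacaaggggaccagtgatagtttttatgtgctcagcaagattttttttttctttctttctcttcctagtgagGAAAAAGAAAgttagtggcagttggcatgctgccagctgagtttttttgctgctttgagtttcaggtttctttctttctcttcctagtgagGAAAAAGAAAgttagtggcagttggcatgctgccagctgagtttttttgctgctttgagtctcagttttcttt
ISG15: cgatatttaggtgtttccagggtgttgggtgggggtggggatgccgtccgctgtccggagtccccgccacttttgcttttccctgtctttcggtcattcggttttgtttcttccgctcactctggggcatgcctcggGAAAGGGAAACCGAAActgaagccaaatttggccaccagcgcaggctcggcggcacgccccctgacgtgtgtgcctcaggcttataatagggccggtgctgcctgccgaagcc
IRF1: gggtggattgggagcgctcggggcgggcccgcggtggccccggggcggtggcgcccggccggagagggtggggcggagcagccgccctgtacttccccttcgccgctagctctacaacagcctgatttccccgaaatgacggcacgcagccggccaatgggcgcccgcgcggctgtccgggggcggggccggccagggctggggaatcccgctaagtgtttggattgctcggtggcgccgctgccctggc

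In IFI44L the 2 matches start 91 bases apart and lie in a repeated stretch of 85 identical bases. In ISG15 the 2 matches overlap and start 113 and 107 bases before the start site. Holding this exact match did not sort the ratios. The 26 expressed genes with one had a median log2 ratio of -1.14, from -2.39 to 0.42. The 17 without one had a median of -1.03, from -2.40 to 0.22. Of these, 15 of 26 and 11 of 17 were at least 2-fold lower. A missing match does not show that an ISRE is missing. In DDX58, OAS1 and XAF1, counted as without one, 2 copies of GAAA stand at a closer spacing than searched. The comparison therefore could not separate genes with and without an ISRE. The gamma-activated site TTCNNNGAA was found in 12 of the 44 genes (27.3%), among them IRF1 and IRF9, against 9.38% of all genes. The 12 had a median log2 ratio of -0.78, and the 31 expressed genes without the site -1.15. At least 2-fold lower were 5 of the 12 and 21 of the 31. The 2 groups also differed in GC content, with medians of 52.8% and 44.1%. The E-box CACGTG, to which c-Myc and MAX bind, was found in 6 of 44 (13.6%) against 8.77% of all genes and 13.4% of those expressed here. HERC5 was one of the 6, and the 5 expressed ones were ADAR, EIF2AK2, IRF9, ISG20 and SP100, with log2 ratios from -1.59 to -0.17.

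PARP9 and DTX3L start back to back and share a single ISRE match, shown because both genes were lower. The stretch on chr3:122564301-122564341, written on the plus strand, runs from the PARP9 start into the first bases of DTX3L, with the match in capitals.
DTX3L and PARP9: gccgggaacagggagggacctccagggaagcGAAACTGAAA
The match at 122564332 to 122564341 starts 6 bases before the DTX3L start site and was found also in the PARP9 window on the other strand. With this match in common, the log2 ratio was -1.63 for PARP9 and -1.11 for DTX3L.

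Some of these genes are neighbours on a chromosome. In RefSeq's gene order on that build, 27 of the expressed interferon response genes form 16 pairs with at most 3 protein-coding genes between them. Pairs of a cluster share genes, so they are not independent. Both genes were at least 2-fold lower in 11 of the 16 pairs, and the median gap in log2 ratio within a pair was 0.33. Most of the 27 genes in these pairs were lower, a larger share than the 32 of 58 over the whole list. No such count or gap was taken for neighbours among all genes. Whether neighbours were more alike than other pairs of genes was not tested. IFNAR2 and IFNAR1 differed by 0.01, SP110 and SP100 by 0.09 and IFI44L and IFI44 by 0.23. The widest gaps were 1.32 between CMPK2 (-0.68) and RSAD2 (-1.9998) and 1.28 between IFITM1 (-1.93) and IFITM3 (-0.65). Neighbours that are near copies can share reads.

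Ratios of these genes went with the GC content of their transcripts. Across the 55 genes with a transcript sequence in GENCODE release 29, Pearson's r between GC content and the deposited log2 ratio was 0.74 and Spearman's rho 0.71, as a description over genes of the same 2 libraries. Over the 9949 expressed genes with a GC value the same values were 0.42 and 0.41. Below 45% GC, 19 of 22 interferon response genes were at least 2-fold lower (86.4%) against 14.8% of all expressed genes. From 45% to 55% GC they were 7 of 17 (41.2%) against 9.91%, and from 55% GC 4 of 16 against 4.68%. The interferon response genes stood lower than all expressed genes in each range, with median log2 ratios of -1.46, -0.83 and -0.45 against -0.18, 0.18 and 0.80. The role medians of GC content were 45.1% for receptor chains, 47.5% for effectors, 50.03% for sensors and adaptors and 56.4% for IRF factors.

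After subtraction of the median ratio at like GC content, 24 of 55 interferon response genes were at least 2-fold lower, against 8.54% of all expressed genes, and none was 2-fold higher. The median was -0.91 over these genes and 0.23 over all. IFIT1, IFI16, TRIM22, DTX3L, HERC6, IRF2, EIF2AK2, IFNAR1 and IFNAR2 were no longer past 2-fold, with values from -0.98 for TRIM22 to -0.71 for IFNAR1. IRF7 (-1.34), TMEM173 (-1.18) and DHX58 (-1.06) came to be past it. By role the corrected medians were -0.98 for effectors, -0.98 for sensors and adaptors and -0.35 for IRF factors, so effectors and sensors were level after the correction and the IRF factors were less low. No interferon response gene stood above 0 after it. Whether GC content acted on the libraries themselves was not tested.

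**Figure D3:**
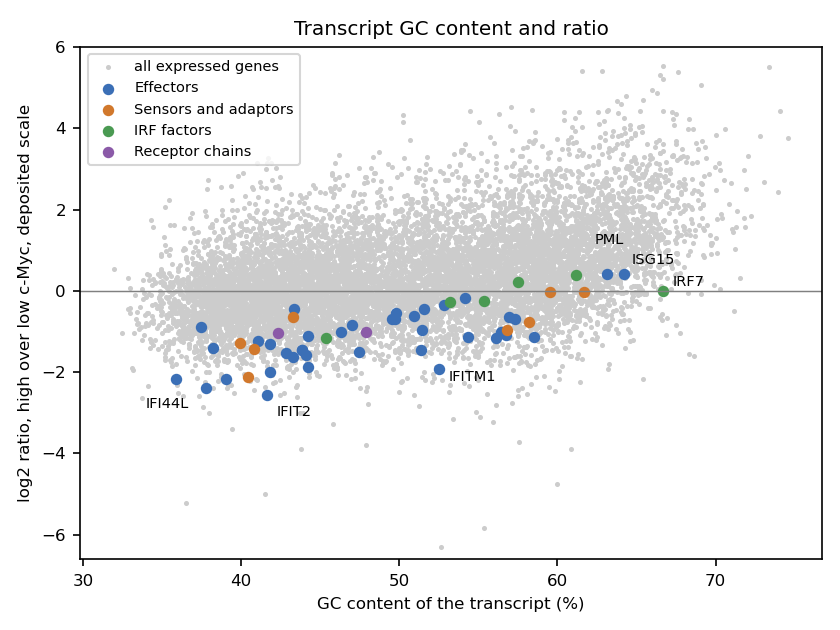
GC content of the transcript in percent against the log2 ratio of high over low c-Myc on the deposited scale, with grey points for 9949 expressed genes and coloured points for 55 interferon response genes by role. IFIT2 and IFI44L, at 41.6% and 37.8% GC, have the lowest ratios of the 55. ISG15 and PML at 64.2% and 63.2% GC have the highest ratios of the list, and IRF7 has the highest GC content at 66.7%.

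The other genes of the pathway were divided by step. Of 17 genes for type I interferons themselves none was expressed by the rule, 15 were listed at 0 in both libraries, and the other 2 were IFNA2 at an RPKM of 0.467 and 0.0664 and IFNB1 at 0.104 and 0.0452. Below the receptor, STAT2 had 57.4 and 13.5, 4.25-fold lower, with a log2 ratio of -2.05. JAK1 had 37.2 and 16.2, a log2 ratio of -1.17. TYK2 had 87.1 and 122, a log2 ratio of 0.49 on the deposited scale and of -0.06 once corrected for GC content. Among 5 negative regulators, SOCS3, an inhibitor of cytokine receptors, was lowest at 41.4 and 1.04, with a log2 ratio of -4.76, and PTPN6, the phosphatase SHP-1, followed at -1.10. SOCS1, which inhibits JAK kinases, was the highest of the 5 at 29.9 and 51.7, with a log2 ratio of 0.78, or -0.57 once corrected for GC content, and PTPN11 stood at 0.17.

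Adaptors and kinases between the sensors and the IRF factors, grouped here with the DNA sensor gene MB21D1, had shares near those of all expressed genes. Of 11 such genes, 3 were at least 2-fold higher and 1 was lower, against 24.9% and 9.74% of all expressed genes, and the median log2 ratio was 0.10 against 0.22. TICAM1, the adaptor TRIF, had an RPKM of 10.9 and 48.8, a log2 ratio of 2.11 on the deposited scale and of 1.17 once corrected for GC content. IRAK1, a kinase below MYD88, had 49.1 and 173, a log2 ratio of 1.81, and TRAF3 had 15.2 and 32.8, a log2 ratio of 1.08. IRAK4, the kinase that activates IRAK1, was the lower one at 8.58 and 2.90, with a log2 ratio of -1.42, or -0.90 once corrected for GC content. TBK1, which phosphorylates IRF3, stood at -0.67, TRAF6, a ligase below IRAK1, at -0.33, MAVS, the adaptor of RIG-I, at -0.13, TRIM25, a ligase that acts on RIG-I, at -0.03, IKBKE at 0.10 and UNC93B1, which carries Toll-like receptors to endosomes, at 0.27. The last 3 had the other sign once corrected for GC content, at 0.014, -0.19 and -1.08. MB21D1, which encodes the DNA sensor cGAS, had 9.69 and 17.99, a log2 ratio of 0.86, against -0.96 for its adaptor TMEM173, and both were past 2-fold once corrected for GC content, at 1.16 and -1.18.

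Of 2 further sensors that were expressed, both were lower. ZBP1, which senses Z-form nucleic acid, had an RPKM of 138 and 38.6, a log2 ratio of -1.83, and AIM2, a sensor of cytoplasmic DNA, had 4.38 and 0.857, a log2 ratio of -1.85. The B cell factors IRF4 and IRF8 stood at -0.40 and 0.24. Of 29 further expressed genes known to be induced by interferon, among them STAT2, 10 were at least 2-fold lower and PARP10 alone 2-fold higher. The shares over all expressed genes were 9.74% lower and 24.9% higher. The median was -0.66 over the 29 genes and 0.22 over all expressed genes. Among the 29, STAT2 and TNFSF10, the death ligand TRAIL, at -2.01 were the lowest. PARP10 at 1.01 and LY6E at 0.79 were the highest, and both were below 0 after the GC correction, at -0.34 and -0.15.

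Per cell the direction was the opposite for nearly all of these genes. On the scale of the synthetic RNAs, 46 of 58 interferon response genes were at least 2-fold higher at high c-Myc, none was 2-fold lower and 57 were above 0. Of all expressed genes 97.1% were at least 2-fold higher and 0.0876% at least 2-fold lower. The median log2 ratio per cell was 1.53 over the interferon response genes, 2.89-fold higher, and 2.78 over all expressed genes, 6.86-fold higher. The gap of 1.25 between these medians is the same on both scales by construction. With the quartiles of the synthetic RNAs' ratio in place of its median, 48 and 36 genes were at least 2-fold higher. These quartiles describe the scatter of single synthetic RNAs, not the error of their median.

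The genes that were not 2-fold higher per cell were 11 effectors and 1 sensor. IFIT2 had a per-cell log2 ratio of -0.01, a fold of 0.992, and SAMD9L and IFI44L had 0.15 and 0.16. SAMD9 and IFI44 stood at 0.39, DDX58 at 0.44 and RSAD2 at 0.56. IFITM1 stood at 0.63, IFIT3 at 0.68, XAF1 at 0.70, PARP9 at 0.93 and SP100 at 0.97. The first 6 of these lay within 0.54 of no difference per cell, which is 1 SD of single synthetic RNAs and not the error of their median. At the other end ISG15 was 7.89-fold higher per cell, PML 7.84-fold and IRF3 7.74-fold, each above the median gene.

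By role, the per-cell medians were 1.42 for effectors, 1.69 for sensors and adaptors and 2.43 for IRF factors, and both receptor chains were higher, IFNAR1 2.89-fold and IFNAR2 2.91-fold. All 6 IRF factors were at least 2-fold higher, from 2.65-fold for IRF2 upward, as were 97.1% of all expressed genes. Of the sensors and adaptors 7 of 8 were, with TLR9 at 5.77-fold, MYD88 at 5.74-fold and TLR7 at 2.20-fold. STAT2 stood at 1.42-fold per cell. SOCS3 was lower on both scales, with a per-cell log2 ratio of -2.21.

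The authors' deposited values renormalized to the synthetic RNAs gave smaller per-cell ratios. From that column 35 of 58 interferon response genes were at least 2-fold higher, against 90.0% of all expressed genes, with medians of 1.15 and 2.25. IFIT2 (-0.41), SAMD9L (-0.23), IFI44L (-0.19), SAMD9 (-0.08) and RSAD2 (-0.08) were below 0, and ISG15 had 3.06. The 11 genes that were no longer 2-fold higher include both receptor chains, at 0.88 for IFNAR1 and 0.95 for IFNAR2, and IRF2, at 0.97.

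**Figure D4:**
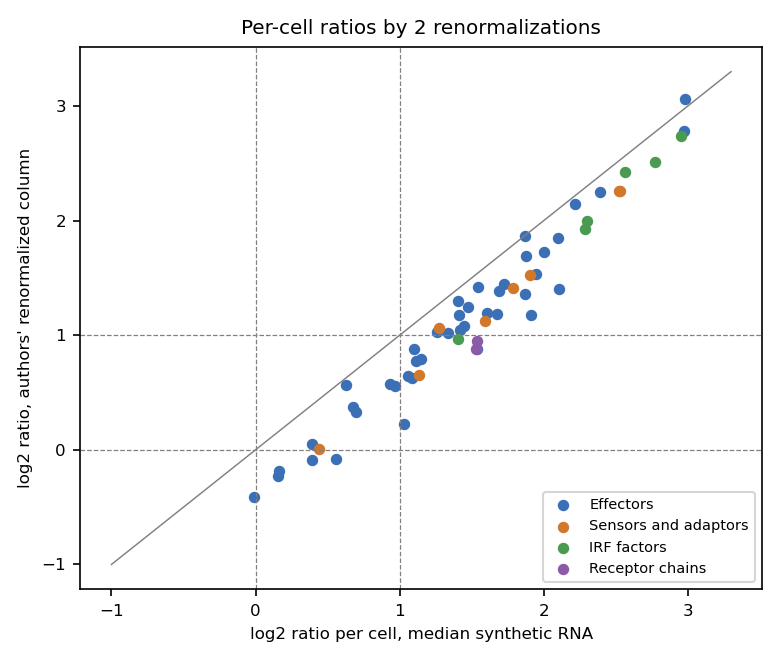
Per-cell log2 ratios of the 58 expressed interferon response genes by the median synthetic RNA (horizontal axis) and from the authors' renormalized column (vertical axis), coloured by role, with a line of equality and dashed lines at 0 and 1. All points but ISG15 lie below the line of equality, with IFIT2 lowest at -0.01 and -0.41.

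Markers of other cell types were checked because plasmacytoid dendritic and myeloid cells also carry interferon genes. All 6 B cell markers were abundant in both libraries, with a summed RPKM of 3219 and 1227. Of them MS4A1, CD79A and CD22 were at least 2-fold lower at high c-Myc, and PAX5 stood at 154 and 121. Of 4 markers of plasmacytoid dendritic cells, LILRA4 stood at 0.0455 and 0, CLEC4C at 0.477 and 0.373, IL3RA at 1.65 and 0.672 and PTCRA at 9.17 and 2.28, a sum of 11.3 and 3.33. Of 6 myeloid markers, CD14, CSF1R and FCGR3A were below 0.1 in both libraries, while CD68, ITGAM and LYZ were at least 2-fold lower at high c-Myc, with a sum over the list of 151 and 35.6. Of 6 T cell markers 3 were expressed and lower, and the list summed to 13.3 and 2.17, with CD3D and CD8A listed at 0 in both libraries, and 5 NK cell markers summed to 10.6 and 5.197, mostly from PRF1 at 8.93 and 4.88, with GNLY and KLRD1 below 0.01 in both. The 5 fibroblast and epithelial markers summed to 19.2 and 13.0, mostly from COL1A1 at 8.06 and 9.23 and PDGFRB at 10.7 and 2.80, with KRT18 listed at 0 in both. The part of other cells in the interferon ratios was not tested.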

How the data were processed

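Poly(A)-selected RNA of 1 low and 1 high c-Myc sample was sequenced by a strand-keeping dUTP protocol with 15 PCR cycles, after ERCC ExFold synthetic RNAs had been added by cell number, per the labels' protocols. Bowtie and build hg18 are named in the submitters' processing notes, whereas the counting tool, its use of strand and its handling of reads with several matches remain not given in the sources used here, so reads of overlapping, antisense or near-identical genes cannot be told apart. The authors deposited RPKM values and RPKM renormalized to the synthetic RNAs, per the file headers. The formula of the second and the reads the scaling covers were steps not given in the sources used here.

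From these tables (34286 rows, of which 92 were synthetic RNAs) the row of highest mean RPKM stood for each symbol. The pseudocount of 0.5 was added to genes but not to synthetic RNAs, which per cell pulls weak genes towards a log2 ratio of 2.56. No test was run, as each group held 1 library. Depth came from RPKM times transcript length (GENCODE release 29, paired by accession): at the depths given, 55.9% of 1212 and 54.4% of 822 transcripts with up to 20 reads came within 0.05 of whole reads, where chance gives 10%. Those lengths are not the authors', so reads are approximate, and intervals hold counting error alone, as PCR copies of a molecule are counted apart. The GC correction subtracted the median ratio in 20 equal bins and added back the overall median (9949 expressed genes, 96.9%). The members and lists were chosen with earlier results of these data known. All 60 genes are accounted for: sensors, IRF factors, receptor chains and families of up to 4 in full, the highest, lowest and most abundant gene of larger families, and of other pathway genes the ligands, signalling genes, adaptors and kinases and the 2 highest and 2 lowest of each other list. A signalling gene of that rule is not reported here. The work was done in Python 3.11.15, numpy 2.4.6, pandas 2.3.3 and scipy 1.17.1, with plots in matplotlib 3.10.9. The calls past 2-fold and the GC correction were tested on simulated data. Those data held no synthetic RNAs, so the per-cell scale was not tested on them.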

Additional observations from a re-analysis of the deposited data

How the results depend on the processing

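No paired analysis was possible because each group held 1 library, and for the same reason no library could be left out. On the deposited scale the count of interferon response genes at least 2-fold lower was 32 and stayed between 24 (GC correction) and 43 (quantile normalization) over 9 alternatives, with none 2-fold higher under any of them, and the median of all 15 families with an expressed gene (13 at a mean RPKM of at least 5) was below 0 under each. The median log2 ratio of -1.02 became -1.12 and -0.97 with a pseudocount of 0.1 and 1, -1.08 at a mean RPKM of at least 5, -0.91 after GC correction, -1.31 at the same RPKM sum, -1.25 after centring and -1.46 after quantile normalization. Those last 3 scalings moved the median of all genes from 0.22 to -0.07, 0 and -0.09, and the shares of all genes called lower and higher from 9.74% and 24.9% to 15.99% and 18.2%, 14.8% and 19.8%, and 17.2% and 17.3%. Per cell the count of 46 at least 2-fold higher stayed between 35 (the authors' renormalized column) and 48. The per-cell median of 1.53 became 1.43 and 1.59 with a pseudocount of 0.1 and 1, 1.47 both at a mean RPKM of at least 5 and with the synthetic RNAs limited to an RPKM of at least 10, 1.65 after GC correction and 1.15 from the authors' column. The log2 ratios of 7 genes lay within 0.1 of the 2-fold line on either side (TMEM173, OASL, HERC6, UBE2L6, IFITM2, IFNAR1 and IFNAR2), so their side of it rests on small differences. Counting depth limits HERC5, GBP2 and IFITM3.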

Other observations

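Transcripts of the same gene differed little in ratio, apart from a few that were picked out after their values were seen. Of the 60 genes 27 had several transcript rows, 128 rows in all over the list, and in 19 of the 27 the rows lay within 0.1 of each other in log2 ratio, with a median gap of 0.03. CMPK2, a mitochondrial nucleotide kinase, was the 1 gene with a gap of over 1. Its row NM_207315 had a log2 ratio of -0.68 and its row NM_001256478 one of 0.78, with 2.34 RPKM at low c-Myc and 4.37 at high c-Myc. PML rows ran from 0.26 for NM_033238 to 0.90 for NM_033247, all above 0. IRF3 rows lay on both sides of 0, from -0.40 for NM_001197128 to 0.47 for NM_001197123. OAS2 had -0.83 for NM_002535 and -1.16 for NM_001032731, which was past 2-fold. IFNAR2 had -1.02 for NM_207585 and -1.44 for NM_207584. Rows of a gene share exons and so most of their reads, and the division of reads between transcripts was a step not given in the sources used here.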
